A study of Homo sapiens with 6 samples.

Results

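Translation factors are the proteins that load messenger RNA onto the ribosome, carry transfer RNA and the ribosome through elongation, and release the finished chain. The group described here was a list of 38 human genes for initiation, elongation and termination factors. It was taken by name and not filtered on measured values, but earlier results of these data were known when it was chosen. Every probe set whose array annotation named a listed gene alone, by a current or older symbol, was a member. Of the 38 genes 33 had such a probe set, among 11963 genes named alone on the array, and together they had 84 probe sets. A probe set is the group of short probes whose signals the array software combines into 1 value, and a gene can have several. EIF4A1, EIF4A2, EEF1B2, EEF1G and PABPC4 were named only together with other genes, so no value is given for them.

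The cells were of the human breast cancer line MDA-MB-231. One group had been electroporated with an siRNA against parathyroid hormone-related protein (siPTHrP) and the other with an siRNA against luciferase (siLuc), which shares the electroporation and an siRNA load but has no target in human cells. RNA was taken after 3 days in 3 independent experiments, each with 1 siPTHrP and 1 siLuc Affymetrix array, so each group held 3 arrays, and the comparison asked which transcripts respond to siPTHrP. The targeted transcript was not analysed here, so the knockdown was not checked, and the labels do not say whether more than 1 siRNA sequence was used.

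The deposited values are linear signal intensities, with medians of 556 to 884.6 per array and trimmed means of 1500.4 to 1500.6. The siLuc array of experiment 1 stood apart: its Spearman correlation with the other 5 arrays across probe sets was 0.716 to 0.725, against 0.882 to 0.960 among those 5. Its 18 spiked hybridisation controls had a geometric mean of 273100, against 10840 to 41430 on the other arrays, and 90.1% of its values carry decimals where the other 5 arrays have none. Of 5 markers of mesenchymal-like breast cancer cells VIM, CD44 and MSN were at or above the 94.9th percentile of every array. SPARC was below the median on every array, and S100A4 on at least 1 array. Of 8 luminal or epithelial markers ERBB2, KRT8 and GATA3 were above the median on every array, and PGR, CDH1 and EPCAM on no array. KRT19 was higher with siPTHrP on every array (1.78-fold, unadjusted p = 0.0614) and ESR1 was at 0.470-fold (unadjusted p = 0.0845), lower in each of the 3 experiments. None of 4 blood cell markers was above the median on every array. Their summed signal was 982 to 1601 with siPTHrP and 2037 to 2478 with siLuc, without overlap. HBB had the highest signal of the 4, at 585 to 1201 with siPTHrP and 1363.3 to 1740 with siLuc. For PTPRC, CD14 and CD3D the groups overlapped, so the separation of the sum was not shared by these markers. Whether these marker differences bear on the values below was not tested. In RNA of whole cultures, fewer cells that express a gene and less RNA per cell cannot be told apart.

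Initiation begins when the cap-binding complex eIF4F, which joins the cap-binding protein eIF4E, the scaffold eIF4G and the helicase eIF4A, recruits a small ribosomal subunit carrying eIF1, eIF1A, eIF2, eIF3 and eIF5. Start codon recognition triggers eIF5-stimulated hydrolysis of GTP on eIF2, eIF5B joins the large subunit, and elongation is then driven by eEF1A and eEF2 with help from eIF5A, until the release factors eRF1 and eRF3 end the chain. Many elongation factor mRNAs, like those of ribosomal proteins, belong to the TOP class: they begin with a C followed by a run of pyrimidines, an element through which the kinase mTOR controls their translation. These proteins are among the most abundant in proliferating cells, and several are known for raised levels in tumours.

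Bases at annotated starts show whether such a run begins there, for the genes that have a listed start. They are not measured starts of these cells. They are printed for genes on which the results below turn, with others for contrast. Each line gives 10 bases before and 20 bases from an annotated start, read 5′ to 3′ on the gene's strand, from RefSeq on GRCh38.p14. Capitals mark a tract of at least 5 bases that begins with C at the start and continues with C or T.
EEF1A1, chr6:73521013-73521042, minus strand: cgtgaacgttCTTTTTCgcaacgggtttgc
EEF2, chr19:3985444-3985473, minus strand: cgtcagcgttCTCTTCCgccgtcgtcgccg
EIF4B, chr12:53006446-53006475, plus strand: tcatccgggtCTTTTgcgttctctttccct
EIF3F, chr11:7987327-7987356, plus strand: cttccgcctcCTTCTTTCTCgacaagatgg
EIF3M, chr11:32583821-32583850, plus strand: gcccagttccCTTTTCCggtcggcgtggtc
EIF5, chr14:103334227-103334256, plus strand: ggcgttgttcagtcagagcgagaacattcc
EIF5A, chr17:7306989-7307018, plus strand: tgggaacccgaccacactagcgcgctagaa
PAIP1, chr5:43557392-43557421, minus strand: ccgtgtttttatttcccgggcgtcaactgt

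The promoter table held 43 starts of 29 members. At least 1 start of 10 members had the tract, of which 8 were measured, while 5.14% of all 27305 genes in the table, and 4.07% of its 35116 starts, had it. Of 10 members listed as TOP mRNAs from background knowledge, 6 were in the table and 5 of these had the tract. EIF5, EIF5A and PAIP1 had it at none of their listed starts. The search read the gene's strand only and asked for the tract exactly at the start, so a start annotated a base away would be missed.

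With siPTHrP the largest differences among translation factors lay in 4 genes. Most probe sets of EIF5 were higher, the 4 probe sets of EEF1A1 were lower, and in PAIP1 and EIF5A some probe sets differed strongly while others of the same gene did not. No difference passed the test. With limma, the experiment as a block and Benjamini-Hochberg adjustment over 13329 probe sets bright enough to keep, 0% of all probe sets and 0 of the 76 kept translation factor probe sets had an adjusted p under 0.05, and the smallest among translation factors was 0.219. At an unadjusted p under 0.05, 10 of the 76 (13.2%) were higher and 5 (6.58%) were lower with siPTHrP, where the shares over all probe sets were 6.77% and 5.36%. These 15 probe sets belonged to 8 genes, and several target the same transcript, so they are not separate findings.

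**Figure D1:**
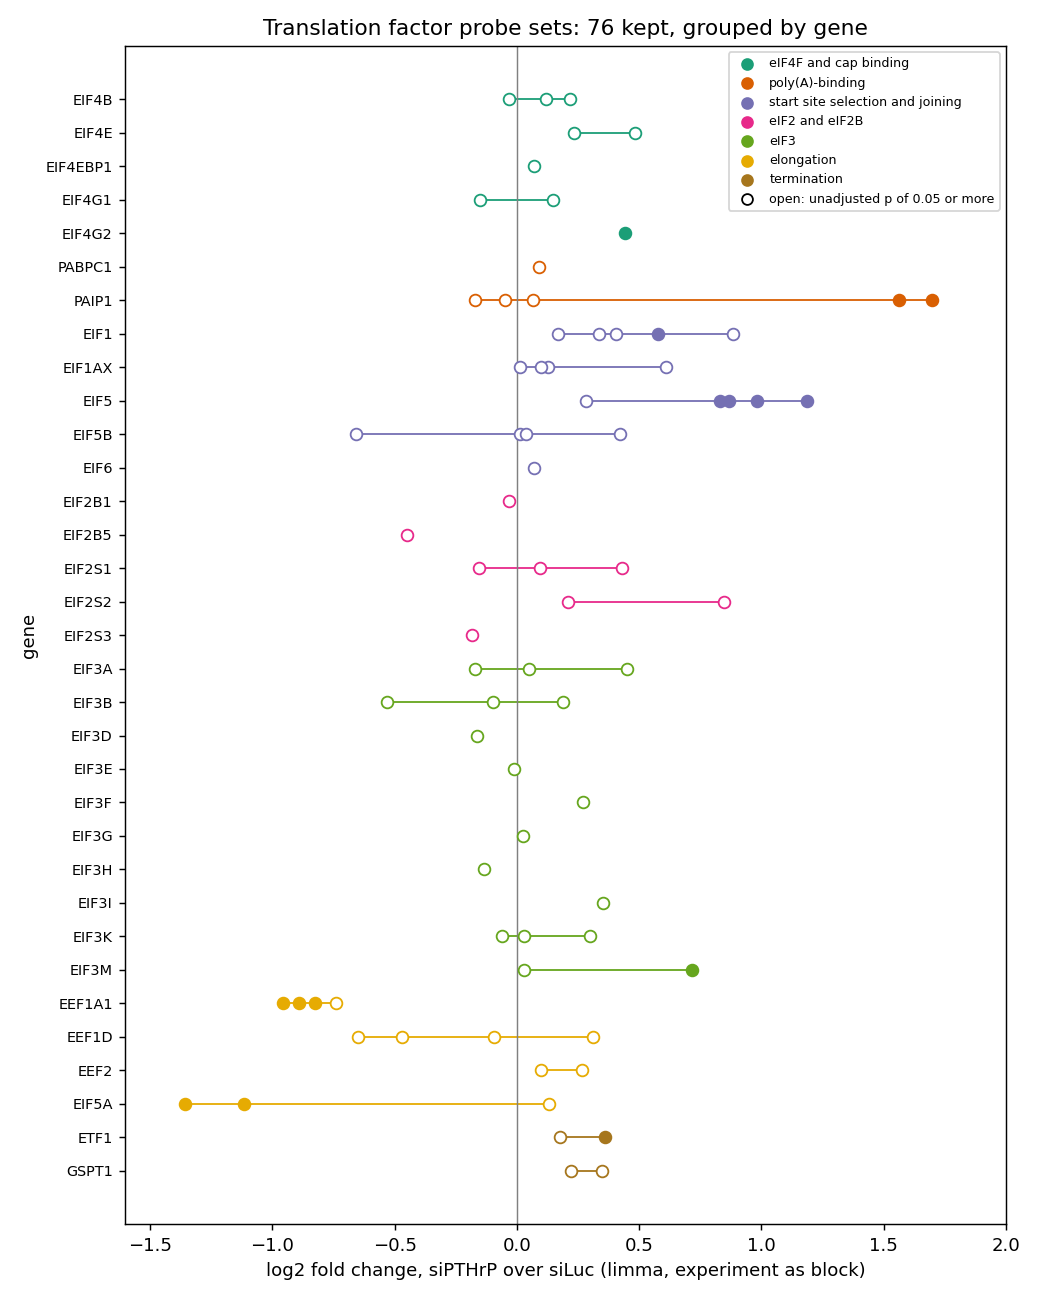
Log2 fold change of siPTHrP over siLuc for the 76 kept probe sets (points), 1 row per gene and coloured by class, with a line over the range within a gene. Filled points had an unadjusted limma p under 0.05 and open ones did not. The EEF1A1 points lie together between -0.96 and -0.74, and those of PAIP1 spread from -0.17 to 1.70.

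EIF5 is the GTPase-activating partner of eIF2 and takes part in start codon selection. Its probe set 208706_s_at had signals of 12709, 7614 and 6372 in siPTHrP experiments 1, 2 and 3, against 2347, 4302 and 5140 in siLuc experiments 1, 2 and 3. Every siPTHrP array was above every siLuc array, and the fold change was 2.28 (log2 1.19, SE 0.34, limma adjusted p = 0.332). This was the EIF5 probe set with the largest difference.

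On 208708_x_at EIF5 had 12882, 6850 and 12567 with siPTHrP, against 4596, 3166 and 9840 with siLuc. Within each experiment siPTHrP was higher, but the siPTHrP array of experiment 2 was below the siLuc array of experiment 3 (1.98-fold, log2 0.98, SE 0.23, limma adjusted p = 0.321). On 208705_s_at the signals were 15498, 8037 and 14815 with siPTHrP, against 4844, 6041 and 11214 with siLuc, again overlapping (1.78-fold, unadjusted p = 0.00951). On 208290_s_at they were 8135, 3434 and 7087, against 2380, 1911 and 7088 (1.83-fold, unadjusted p = 0.0180). There the arrays of experiment 3 were equal to within 1 unit, so the whole difference came from experiments 1 and 2. The remaining EIF5 probe set, 208707_at, was dim, at 847, 805 and 892 with siPTHrP and 690, 879 and 550 with siLuc, and its groups overlapped (1.22-fold, unadjusted p = 0.532). Over the 3 experiments the log2 difference on 208706_s_at was 2.43, 0.82 and 0.31, so that the array that stood apart carried the largest of them. Without experiment 1 the 4 brighter probe sets stood at log2 0.41 to 0.73, and without experiment 3 at 1.04 to 1.63, where all 4 passed (limma adjusted p = 6.64e-06 to 0.0109). Without experiment 2 only 208706_s_at of these passed (limma adjusted p = 0.0170). A fit to 2 experiments leaves 1 residual degree of freedom, so its p-values rest almost wholly on the spread pooled over all probe sets: the prior held 13.3 degrees of freedom without experiment 1, 108 without experiment 2, and without experiment 3 all weight. Passing in such a fit therefore does not measure the spread of the gene itself.

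PAIP1 interacts with both PABPC1 and eIF4A and favours initiation. Its 5 probe sets disagreed. On 209064_x_at it had 3432, 3533 and 2413 with siPTHrP, against 1230, 1035 and 862 with siLuc. The groups were far apart on this probe set and the difference was alike in each experiment, at log2 1.47, 1.76 and 1.47 (2.96-fold, SE 0.27, limma adjusted p = 0.219). On 208051_s_at it had 2122, 2523 and 1854 with siPTHrP, against 1385, 612 and 323 with siLuc. These groups did not overlap either, but the difference was 0.61, 2.02 and 2.46 in experiments 1, 2 and 3 (3.24-fold, log2 1.70, SE 0.42, limma adjusted p = 0.324).

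The other 3 PAIP1 probe sets gave no such separation. On 209063_x_at the signals were 5806, 6762 and 4692 with siPTHrP, against 3977, 7545 and 5354 with siLuc (1.05-fold, unadjusted p = 0.759). On 210283_x_at they were 5188, 5005 and 3330, against 4867, 5222 and 4851 (0.889-fold, unadjusted p = 0.423). On 213754_s_at they were 1578, 1894 and 2998, against 2302, 1709 and 2523 (0.967-fold, unadjusted p = 0.860). The groups overlapped on each of these, so the PAIP1 difference was seen on 2 of 5 probe sets, which can target different parts or forms of the transcript. These 2 were the only translation factor probe sets past the threshold without experiment 1, at limma adjusted p = 0.0227 for 209064_x_at and 0.0162 for 208051_s_at. In that fit 0.248% of all probe sets passed. Without experiment 3, 209064_x_at passed too (limma adjusted p = 0.0114), with 1.61% of all probe sets.

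PABPC1, the main cytoplasmic poly(A)-binding protein, had 45064, 45918 and 61402 with siPTHrP, against 35974, 47176 and 62051 with siLuc. The arrays of experiments 2 and 3 were close to each other within the pair, and the groups overlapped (1.06-fold, unadjusted p = 0.604).

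**Figure D2:**
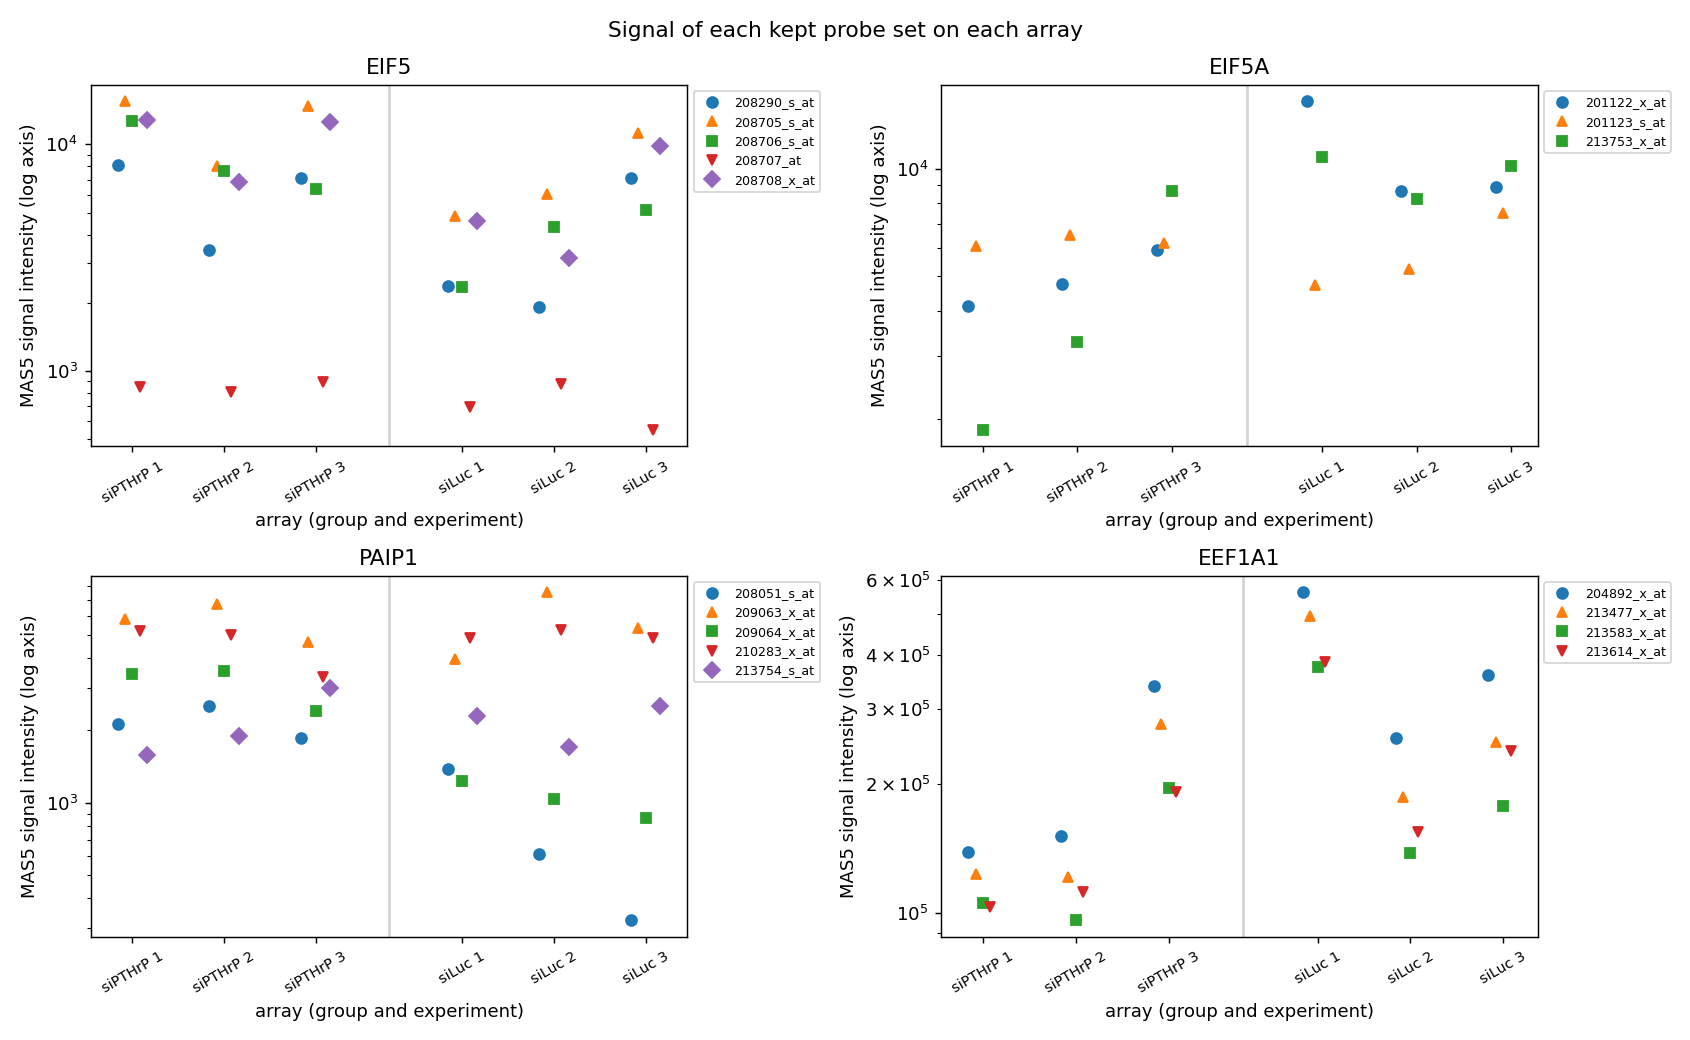
Signal intensity (log axis) of each kept probe set of EIF5, EIF5A, PAIP1 and EEF1A1 on the 3 siPTHrP arrays (left of the line) and the 3 siLuc arrays (right). Each of the 4 EEF1A1 probe sets is highest on siLuc 1, whereas the probe sets of EIF5A and of PAIP1 differ in their order of arrays.

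EEF1A1 brings aminoacyl-tRNA to the ribosome and is one of the most abundant proteins of the cell. On 204892_x_at it had 138821, 151117 and 339326 with siPTHrP, against 561983, 255974 and 360630 with siLuc. The siPTHrP arrays of experiments 1 and 2 were below every siLuc array, and that of experiment 3 was not (0.516-fold, log2 -0.96, SE 0.33, limma adjusted p = 0.367). On 213614_x_at the signals were 103576, 112143 and 191559, against 385006, 154810 and 238553 (0.539-fold, unadjusted p = 0.0160). On 213477_x_at they were 123569, 121387 and 277224, against 494255, 186414 and 250783 (0.565-fold, unadjusted p = 0.0439), and here siPTHrP was higher in experiment 3. The same held for 213583_x_at, at 105372, 96170 and 195635 with siPTHrP and 375520, 137965 and 178266 with siLuc (0.599-fold, unadjusted p = 0.0506). All 4 are of the _x_at kind, which holds probes that also match other sequences, so related transcripts may add to them. The related gene EEF1A2, an isoform of nerve and muscle, had 2060, 2257 and 2045 with siPTHrP, against 2427, 2285 and 2164 with siLuc (0.926-fold, unadjusted p = 0.652).

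The EEF1A1 value moved with the arrays used and with the scaling. It was log2 -2.02, -0.76 and -0.09 in experiments 1, 2 and 3 on 204892_x_at, and the siLuc array of experiment 1 had the highest EEF1A1 signal of all 6 on each of the 4 probe sets. Without experiment 1 the 4 probe sets stood at log2 -0.42 to -0.19. Without the siLuc array of experiment 1 alone, and with no block, they stood at -0.66 to -0.32 (unadjusted p = 0.151 to 0.390). Without experiment 3 they stood at -1.39 to -1.18, where all 4 passed (limma adjusted p = 0.000211 to 0.00223) with 1 residual degree of freedom. With quantile normalization 204892_x_at stood at -0.07 and 213614_x_at at -0.36.

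The second elongation GTPase, EEF2, which moves the ribosome along the mRNA, gave no common order of the groups. On 204102_s_at it had 50840, 44976 and 50708 with siPTHrP, against 43362, 59873 and 36512 with siLuc (1.07-fold, unadjusted p = 0.641). On its other probe set it stood at 1.20-fold (unadjusted p = 0.199). EEF1D, a subunit of the exchange factor that recharges eEF1A with GTP, had 18169, 17011 and 22328 on 214394_x_at with siPTHrP, against 21840, 17540 and 21840 with siLuc (0.938-fold, unadjusted p = 0.571). Its other 3 probe sets lay at log2 -0.65, -0.47 and 0.31, each with an unadjusted p of at least 0.129.

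EIF5A is the only known protein family to carry hypusine, a modified lysine, and it relieves ribosomes stalled at difficult peptide bonds. On 201122_x_at it had 4127, 4767 and 5916 with siPTHrP, against 15432, 8667 and 8897 with siLuc. Every siPTHrP array was below every siLuc array, and the difference was log2 -1.90, -0.86 and -0.59 in experiments 1, 2 and 3 (0.462-fold, SE 0.25, limma adjusted p = 0.321). On 213753_x_at it had 1865, 3277 and 8657 with siPTHrP, against 10758, 8218 and 10157 with siLuc. Here the siPTHrP array of experiment 3 reached the siLuc range (0.390-fold, log2 -1.36, SE 0.35, limma adjusted p = 0.324). On 201123_s_at, in contrast, it had 6080, 6511 and 6198 with siPTHrP, against 4723, 5239 and 7513 with siLuc, with overlap and a fold of 1.10 (unadjusted p = 0.515).

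The 2 EIF5A probe sets with lower signal are of the _x_at kind, and the remaining one is of the _s_at kind, whose probes can match several transcripts, so other transcripts may add to each of the 3. The same limit holds for every PAIP1 probe set and for those of EIF5 other than 208707_at, which are also of these kinds. Without experiment 1 EIF5A stood at log2 -0.72 on 201122_x_at and -0.78 on 213753_x_at, and neither passed (limma adjusted p = 0.126 and 0.173). Both passed without experiment 2, at limma adjusted p = 0.0177 and 0.0136, and without experiment 3, at 0.000122 and 1.03e-07, with the same limit of 1 residual degree of freedom. Without the siLuc array of experiment 1 alone, and with no block, they stood at -0.85 and -1.28. In the 13 alternatives that kept them both were below 0, whereas 201123_s_at ranged from -0.0031 to 0.34. The paralog EIF5A2 had 468, 357 and 248 with siPTHrP, against 1023, 451 and 385 with siLuc (0.626-fold, unadjusted p = 0.290). Of the enzymes that make hypusine, DHPS stood at 1.17-fold (unadjusted p = 0.305) and DOHH at 0.841-fold (unadjusted p = 0.516).

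**Figure D3:**
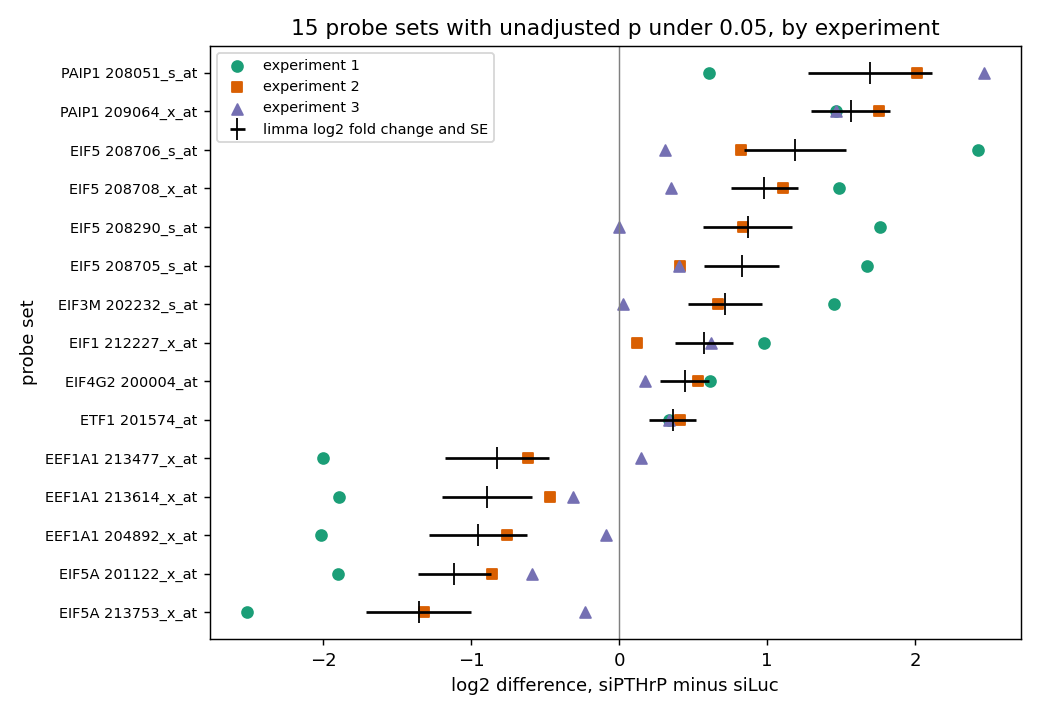
Log2 difference of siPTHrP minus siLuc within each experiment (coloured symbols) for the 15 translation factor probe sets with an unadjusted limma p under 0.05, with the fitted value and its SE in black. Experiment 1 gave the largest difference for 12 of the 15.

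Other factors of the scanning complex had fewer probe sets with an unadjusted p under 0.05. EIF1, which guards the stringency of start codon choice, had 5 kept probe sets, all with a fold above 1, from 1.12 to 1.85. On 212227_x_at it had 48798, 46757 and 61851 with siPTHrP, against 24744, 42923 and 40197 with siLuc, without overlap (1.49-fold, unadjusted p = 0.0159, limma adjusted p = 0.362). On 202021_x_at, 212130_x_at and 211956_s_at the groups overlapped, at 1.26-fold, 1.32-fold and 1.12-fold. EIF1 on the dimmer 217672_x_at had 1085, 929 and 1107 with siPTHrP, against 852, 812 and 242 with siLuc, all siPTHrP arrays being higher, and its 1.85-fold difference came mostly from the siLuc array of experiment 3 (unadjusted p = 0.118). A sixth probe set, 212225_at, was too dim to keep.

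EIF1AX, the partner of EIF1 in scanning, lay between 1.01-fold and 1.52-fold on 4 probe sets, with unadjusted p-values of at least 0.0732. EIF6, which keeps the ribosomal subunits apart, was at 1.05-fold (unadjusted p = 0.666). EIF5B, the GTPase that joins the subunits, had probe sets on both sides of 0. On 201027_s_at it had 3082, 2794 and 2298 with siPTHrP, against 1709, 2289 and 2100 with siLuc, all siPTHrP arrays being higher (1.34-fold, unadjusted p = 0.130). On 201026_at EIF5B had 813, 700 and 348, against 914, 1057 and 837, all siPTHrP arrays being lower (0.633-fold, unadjusted p = 0.180). Its other 2 kept probe sets were at 1.01-fold and 1.03-fold, and 2 more were too dim to keep.

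In the cap-binding group all 5 measured genes had a positive value on their brightest probe set, with a median log2 of 0.22 against 0.03 over all 8120 genes. With quantile normalization the median over all genes was 0.08. On the same probe sets EIF4EBP1 was then at -0.08, EIF4G1 at 0.01 and EIF4B at 0.06, each below that median. EIF4G2 at 0.275 and EIF4E at 0.455 were above it. EIF4G2, a relative of the eIF4G scaffold that lacks the site for the cap-binding protein, had 16548, 15810 and 12295 with siPTHrP, against 10781, 10913 and 10904 with siLuc. The siLuc arrays were nearly equal and all below the siPTHrP arrays (1.36-fold, log2 0.44, SE 0.17, unadjusted p = 0.0264, limma adjusted p = 0.392). Its second probe set, 217607_x_at, was too dim to keep, at 336, 242 and 119 against 1064, 457 and 76. EIF4E, the cap-binding protein, had 4271, 3900 and 4044 on 201435_s_at with siPTHrP, against 2214, 3528 and 3142 with siLuc. These groups did not overlap, but the fold of 1.40 had an unadjusted p of 0.0630. The gap was widest in experiment 1, at log2 0.94, against 0.14 in experiment 2 and 0.36 in experiment 3. On the other kept EIF4E probe set, 201437_s_at, the groups overlapped (1.17-fold, unadjusted p = 0.526). There siPTHrP was lower in experiment 1, by log2 -0.22, and higher in experiments 2 and 3. Probe set 201436_at of EIF4E was too dim to keep.

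EIF4G1, the main scaffold, had 7548, 8337 and 5671 on 208625_s_at with siPTHrP, against 5696, 7175 and 6428 with siLuc, with overlap (1.11-fold, unadjusted p = 0.449). On 208624_s_at it had 2993, 2740 and 2946 with siPTHrP, against 3262, 3082 and 3302 with siLuc, all siPTHrP arrays being lower by a small amount (0.900-fold, unadjusted p = 0.483). EIF4B, which stimulates the helicase, had 17877, 13973 and 21729 on 211937_at with siPTHrP, against 15284, 13170 and 17153 with siLuc (1.16-fold, unadjusted p = 0.197). Its other 2 probe sets were at 1.09-fold and 0.979-fold. EIF4EBP1, the inhibitor that holds the cap-binding protein away from its scaffold, had 9225, 7592 and 9826 with siPTHrP, against 7725, 6831 and 11245 with siLuc. The siLuc array of experiment 3 was the highest of the 6, and the fold was 1.05 (unadjusted p = 0.691).

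Subunits of eIF2, which carries the initiator tRNA, and of its exchange factor eIF2B showed no unadjusted p under 0.05. EIF2S1, the alpha subunit that stress kinases phosphorylate, lay at 1.35-fold, 1.07-fold and 0.899-fold on 3 probe sets. EIF2S2, the beta subunit, was at 1.80-fold on the dim 208725_at, with 637, 806 and 984 with siPTHrP against 340, 578 and 421 with siLuc, and at 1.16-fold on the other. EIF2S3, the gamma subunit that binds GTP, was at 0.881-fold. EIF2B5, the catalytic subunit of the exchange factor, had 1529, 1214 and 1443 with siPTHrP, against 2102, 2075 and 1584 with siLuc. Every siPTHrP array was lower, at 0.731-fold, with an unadjusted p of 0.15, and EIF2B1 was at 0.977-fold.

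The eIF3 subunits, which form the scaffold on the small ribosomal subunit, centred near 0. On the brightest probe set of each, 6 of 10 were above 0 and 4 below, with a median log2 of 0.03 and a range of -0.16 to 0.35. EIF3I, at the upper end, had 14592, 16060 and 21022 with siPTHrP, against 11661, 13936 and 14568 with siLuc, without overlap (1.28-fold, unadjusted p = 0.0536). EIF3M was split between probe sets. On 202232_s_at EIF3M had 13588, 13918 and 9376 with siPTHrP, against 4964, 8760 and 9201 with siLuc, without overlap (1.64-fold, unadjusted p = 0.0183, limma adjusted p = 0.366), but on 202231_at it had 18128, 19574 and 11972, against 19378, 17063 and 12126 (1.02-fold, unadjusted p = 0.864). The log2 difference on 202232_s_at was 1.45, 0.67 and 0.03 in experiments 1, 2 and 3, and this probe set passed without experiment 3 (limma adjusted p = 0.00549). A further probe set of EIF3M, 215190_at, was too dim to keep.

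Among the remaining eIF3 genes EIF3D was at 0.894-fold, EIF3E at 0.993-fold, EIF3F at 1.21-fold, EIF3G at 1.02-fold and EIF3H at 0.911-fold, with unadjusted p-values of at least 0.165. EIF3A, EIF3B and EIF3K had 3 kept probe sets each, with values on both sides of 0. Their log2 fold changes ran from -0.17 to 0.45 for EIF3A, from -0.53 to 0.19 for EIF3B and from -0.06 to 0.30 for EIF3K.

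Both release factor genes were above 0 on all kept probe sets. ETF1 encodes eRF1, which reads the stop codons. On 201574_at it had 12309, 11730 and 10614 with siPTHrP, against 9762, 8834 and 8386 with siLuc. All siPTHrP arrays were higher, and the log2 difference was nearly the same in each experiment, at 0.33, 0.41 and 0.34 (1.28-fold, SE 0.16, unadjusted p = 0.0479, limma adjusted p = 0.410). On 201573_s_at ETF1 had 3959, 3905 and 3306, against 3837, 2672 and 3459, with overlap (1.13-fold, unadjusted p = 0.441), and without experiment 2 it stood at log2 -0.01. GSPT1, which encodes the GTPase eRF3a, had 3870, 3942 and 3315 on 201912_s_at with siPTHrP, against 2067, 3403 and 3483 with siLuc (1.27-fold, unadjusted p = 0.188). Its second kept probe set was at 1.16-fold.

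Seen by gene, with the brightest probe set of each, 23 translation factors were above 0 and 10 below, with a median log2 fold change of 0.07, where all genes had 4281 above, 3839 below and a median of 0.03. Of the 33 genes 3 were higher (EIF5, EIF4G2 and ETF1) and 2 lower (EEF1A1 and EIF5A) at an unadjusted p under 0.05, and over all genes the shares were 7.06% and 5.57%. Quantile normalization turned the median of the 33 to -0.07, with 0.08 for all genes. The median was 0.23, 0.01 and -0.02 in experiments 1, 2 and 3. By class it was -0.52 over 4 elongation factors (EEF1A1 -0.96, EIF5A -1.12, EEF1D -0.09 and EEF2 0.10) and 0.35 over 2 release factors. It was 0.17 over 5 factors of start site selection and joining, and -0.03 over 5 subunits of eIF2 and eIF2B. Over PABPC1 and its partner PAIP1 it was 0.08, read for PAIP1 on 209063_x_at and not on the 2 probe sets that differed strongly. The elongation median was -1.08, -0.59 and -0.03 in experiments 1, 2 and 3, and -0.17 with quantile normalization. It was -0.22 without experiment 1, and -0.02 without the siLuc array of experiment 1 alone and with no block. In that last fit the brightest EIF5A probe set was 201123_s_at, at log2 -0.0031, instead of 201122_x_at, at -0.85. EEF1A1 there stood at -0.66 on 204892_x_at. The -0.02 was therefore not read on the same probe sets as the -0.52, and does not measure the effect of that array alone. The -0.52 in turn depends on 201122_x_at, which was not the brightest once that array was left out. In the main fit 201123_s_at stood at log2 0.13. With the mean over the probe sets of each gene the elongation median was -0.50.

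**Figure D4:**
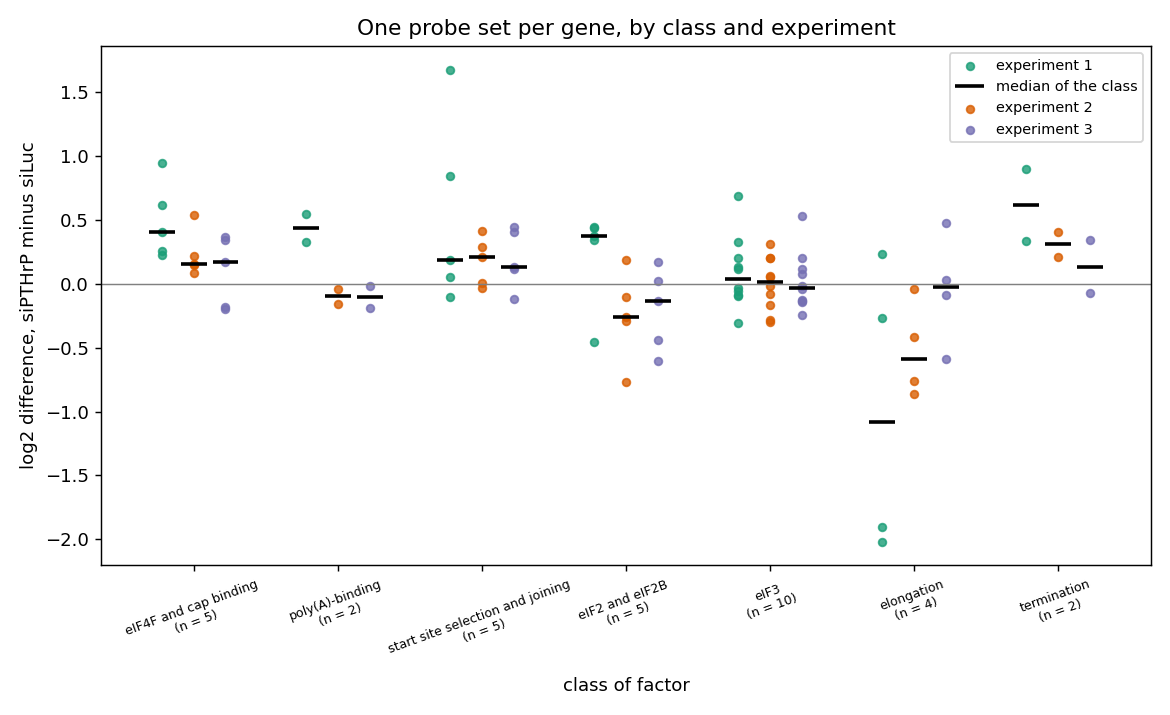
Log2 difference of siPTHrP minus siLuc in each experiment (colours) for the brightest probe set of each of the 33 genes (points), by class, with the class median as a black bar. The elongation factors spread most, with EEF1A1 at -2.02 and EIF5A at -1.90 in experiment 1.

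The 8 measured TOP genes, EEF1A1 among them, centred near 0. Their median log2 fold change was 0.04, with 4 above 0 and 4 below, and the other 25 translation factors had 0.07. Likewise the 8 measured genes with the tract printed in capitals above, or with a like one, ranged from -0.96 for EEF1A1 to 0.27 for EIF3F with a median of 0.03, and 17 with annotated starts and no tract had 0.15. These are descriptions without a test.

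Separation of the groups and steadiness over experiments were read on all 76 kept probe sets. Every siPTHrP array was above every siLuc array for 13 of them (17.1%) and below for 4 (5.26%), where 8.94% and 9.69% of all probe sets were so placed. The sign was the same in all 3 experiments for 35 (46.1%), against 38.1% of all probe sets. Of the 15 with an unadjusted p under 0.05, 12 had their largest difference in experiment 1 and 12 their smallest in experiment 3. Over all 1618 probe sets with such a p, experiment 1 gave the largest difference in 65.2% and experiment 3 the smallest in 41.5%.

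Disagreement between probe sets of a gene was about as common here as elsewhere on the array. Of 20 translation factor genes with 2 or more kept probe sets 10 (50%) had values on both sides of 0, and so had 47.8% of 2501 such genes over the array. The median range within a gene was 0.61 on the log2 scale, against 0.51 over the array. The genes with both signs and a range of at least 1 were PAIP1, EIF5A and EIF5B.

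Related genes outside the list of 38 were read on their brightest probe sets. Of 19 measured cytosolic translation factors 13 were above 0, with a median log2 of 0.11, and 2 were higher and 0 lower at an unadjusted p under 0.05. Over all 8120 genes 4281 were above 0, and 7.06% were higher and 5.57% lower at such a p. The 2 higher genes were the eIF3 subunits EIF3L and EIF3J. EIF3L had 26323, 24972 and 19839 with siPTHrP, against 16383, 19801 and 17466 with siLuc (1.32-fold, unadjusted p = 0.0392), and EIF3J was at 1.41-fold (unadjusted p = 0.0426). In both genes every siPTHrP array was above its siLuc partner.

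Among 12 measured regulators of these factors 6 were above 0 and 6 below, with a median log2 of 0.02. EIF4EBP2, a second inhibitor of the cap-binding protein, had 879, 1226 and 917 with siPTHrP, against 3851, 1221 and 1812 with siLuc (0.491-fold, unadjusted p = 0.0332). The arrays of experiment 2 were nearly equal for it, and the siLuc array of experiment 1 was the highest. MTOR, the kinase that acts on these inhibitors, was at 0.611-fold (unadjusted p = 0.178), and the eIF2 kinases EIF2AK1, EIF2AK2 and EIF2AK3 were at 1.14-fold, 1.17-fold and 0.984-fold. Of 4 mitochondrial translation factors MTIF2 was at 1.60-fold (unadjusted p = 0.0485), with log2 differences of 1.65, 0.36 and 0.04 in experiments 1, 2 and 3, and TUFM, the mitochondrial counterpart of eEF1A, was at 1.12-fold. No gene of these lists passed the adjusted threshold.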

How the data were processed

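Total RNA of 6 MDA-MB-231 samples was hybridised to 1 array each. The deposited intensities are linear, and the submitters' processing notes name MAS5, an Affymetrix summary of each probe set. The sources used here give no version or parameters for it. Groups and experiment numbers came from titles and descriptions, the unnumbered siLuc sample being experiment 1 by elimination. The title was followed for siLuc 3, whose description carries another number. Because the design text pairs the 2 RNAs of an experiment, the experiment number entered the fit as a block. Deviations from group means correlated at -0.012, 0.157 and 0.157 within experiments 1, 2 and 3, against -0.206 to 0.132 between experiments. The value of experiment 1 thus lay within the range of unpaired arrays.

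Analysis used R 4.3.3 and limma 3.58.1 on log2(intensity + 16). Leaving out 68 controls from 22283 probe sets, 13329 with a mean at or above the 40th percentile (a signal of about 376) were kept. lmFit and eBayes with an intensity trend had 2 residual and 7.17 prior degrees of freedom. P-values are two-sided and were adjusted over all kept probe sets. Fold changes are siPTHrP over siLuc on this log2 scale, and the offset shrinks those of dim probe sets. MAS5 values of dim probe sets are noisy. In counts and medians by gene the brightest kept probe set stood for a gene, picked anew in each alternative fit.

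Per-array values are printed for translation factor probe sets with an unadjusted p under 0.05, the other probe sets of those genes, the brightest probe set of each elongation, release and cap-binding factor and of PABPC1 and PAIP1, and genes whose probe sets had opposite signs and differed by at least 1. As exceptions, some probe sets of EIF1, EIF5B and EIF3M are given only by their fold or as too dim to keep. A few further probe sets whose groups did not overlap (of EIF4G1, EIF2S2, EIF2B5 and EIF3I), and EEF1A2, EIF5A2, EIF3L and EIF4EBP2 from the related lists, were chosen after their values were seen. The members and lists were chosen with earlier results of these data known. The fit was tested on simulated data with known changes. Alternatives were no replicate block, offsets of 1 and 64, other scalings and filters, no trend, array weights, fewer probe sets and fewer arrays.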

Additional observations from a re-analysis of the deposited data

How the results depend on the processing

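In the paired analysis 0 of all probe sets and 0 of the 76 translation factor probe sets passed, and with no replicate block both counts were also 0. Without the block 11 translation factor probe sets had an unadjusted p under 0.05, against 15 with it. Over all probe sets the shares were 10.3% and 12.1%. With array weights 177 of all and 5 translation factor probe sets passed (PAIP1 209064_x_at and 208051_s_at, EIF5 208708_x_at and both lower EIF5A probe sets). Leaving out 1 experiment gave 33 to 215 of all and 2 to 12 translation factor probe sets past the threshold, each fit with 1 residual degree of freedom and so resting on the pooled spread. The median of the 4 elongation factors ranged from -0.767 to -0.0215 over the alternatives, nearest 0 without the siLuc array of experiment 1 and no block, and could not be had without _x_at and _s_at probe sets. The count of 15 became 6 with no intensity trend, 2 without _x_at and _s_at probe sets (23 were left to test), and 9 without the siLuc array of experiment 1 and no block. Over all probe sets the share at an unadjusted p under 0.05 was 9.94%, 12.6% and 12.6% in these fits. In each of them the translation factor share was below that over all probe sets, whereas in the main fit it was above (19.7% against 12.1%). The median of the 33 genes turned to -0.0744 with quantile normalization. Apart from the smaller number of probe sets without the _x_at and _s_at kinds, and the change of EIF5A probe set, the cause of these changes was not tested. None of the 15 changed sign in any alternative that tested it. They had been picked by their p-values on these same arrays. Leaving out the block or the trend and changing the filter do not alter a log2 fold change. The kept sign is therefore no separate support. The number of arrays, 3 a group, limits the precision, and signals near or under the filter of 376 are the least certain.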
